A study of Mus musculus with 20 samples.

Results

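The small leucine-rich proteoglycans are secreted matrix proteins that bind collagen fibrils. The 10 genes described here were chosen by name from the family, namely Dcn (decorin), Bgn (biglycan), Aspn (asporin), Fmod (fibromodulin), Lum (lumican), Prelp, Kera (keratocan), Omd (osteomodulin), Ogn (osteoglycin) and Podn (podocan). Other members and relatives, some of which also had RNA in these muscles, are counted further below. The 10 chosen genes are among the 22660 with a row in the count table, and all 10 passed the filter on low counts (10 counts in 5 mice) in every comparison. In vehicle mice Omd passed only with the help of the MOV mice, since 3 of the 5 sham mice reached 10 counts.

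Each protein of the family is built on a curved array of leucine-rich repeats, and most carry chondroitin, dermatan or keratan sulfate chains. They sit on the surface of collagen fibrils, where they limit how fibrils fuse and how thick they grow, and several also hold growth factors of the TGF-β family, myostatin among them, in the matrix. In skeletal muscle they belong to the connective tissue around and between the fibers and to the tendon, and fibroblasts are their best known source.

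Plantaris RNA was sequenced from old male C57BL/6J mice, which the labels give as 2 years old. They fell into 4 groups of 5 animals each, given by the treatment, vehicle or D + Q, and by the surgery, sham or MOV. MOV is mechanical overload, in which parts of the gastrocnemius and soleus of both hindlimbs were cut away so that the plantaris had to carry their load, while in sham surgery the skin alone was opened. D + Q is a gavage of dasatinib (5 mg/kg), a tyrosine kinase inhibitor, with quercetin (50 mg/kg), a plant flavonoid, a combination used to remove senescent cells, and vehicle mice received the carrier. The protocol gives both gavages as days 7 and 10 of the 14 days before collection, whereas the series' design text gives the second gavage of the sham mice as day 14. The series asks how removal of senescent cells changes the growth of old muscle under overload, and the comparisons below ask what the proteoglycan genes did with MOV and with D + Q.

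Total counts lay between 17887532 and 26234518 per mouse, and no library stood so close to another of its group that it could be a copy. Levels are given as CPM, counts scaled to a common library size with TMM factors over all 20 mice, and differences as log2 fold changes from edgeR's quasi-likelihood test with Benjamini-Hochberg adjusted p-values over all genes tested. The libraries held the RNA of whole muscle. The fiber genes Acta1, Ckm and Myh4 had means of 23639, 19899 and 58291 CPM in vehicle sham mice. In a bulk sample of this kind, a change in the number of cells of a type and a change in RNA per cell cannot be told apart.

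In the GRCm39 annotation, 8 of the 10 genes lie in 3 clusters. Dcn (chr10:97315275-97358155), Lum (chr10:97400990-97408577) and Kera (chr10:97442728-97449554) are neighbors on the plus strand. Aspn (chr13:49697609-49721057), Omd (chr13:49735938-49746298) and Ogn (chr13:49761349-49780412) follow each other on the plus strand inside Cenpp, a gene of the opposite strand. Cenpp shares 267 exonic bases with Aspn, 1155 with Ogn and 0 with Omd, and because it is not stated whether the counting used strand, reads in the shared bases are uncertain. Prelp (chr1:133837335-133857971, minus strand) and Fmod (chr1:133964992-133976015, plus strand) are neighboring protein-coding genes. Bgn is at chrX:72527208-72539541 on the plus strand and Podn at chr4:107871988-107889534 on the minus strand.

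The 250 bases before the annotated start of 4 members are printed because these members carry the results below. Aspn and Bgn had the largest responses to MOV, and Fmod and Prelp had the lowest p-values between D + Q and vehicle MOV muscle. The sequences are RefSeq's, on GRCm38.p6, written 5′ to 3′ on the gene's own strand, with matches to the motifs searched in capitals. Aspn is chr13:49544193-49544442 (plus strand), Bgn chrX:73483351-73483600 (plus strand), Fmod chr1:134037004-134037253 (plus strand) and Prelp chr1:133921402-133921651 (minus strand).
Aspn: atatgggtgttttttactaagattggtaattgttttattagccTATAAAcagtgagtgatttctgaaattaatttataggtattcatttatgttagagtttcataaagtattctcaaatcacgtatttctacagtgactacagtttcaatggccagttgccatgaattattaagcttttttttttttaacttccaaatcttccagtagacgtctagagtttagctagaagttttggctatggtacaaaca
Bgn: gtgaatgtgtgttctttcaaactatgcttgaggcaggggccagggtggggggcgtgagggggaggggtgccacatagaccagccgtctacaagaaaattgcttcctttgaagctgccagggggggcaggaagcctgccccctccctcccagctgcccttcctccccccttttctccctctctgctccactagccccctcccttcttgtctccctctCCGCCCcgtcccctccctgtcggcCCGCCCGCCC
Fmod: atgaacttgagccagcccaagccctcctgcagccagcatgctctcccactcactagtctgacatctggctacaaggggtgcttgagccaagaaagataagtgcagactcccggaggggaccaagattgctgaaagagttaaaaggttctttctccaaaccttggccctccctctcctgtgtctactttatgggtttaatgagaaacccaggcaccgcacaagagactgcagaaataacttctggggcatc
Prelp: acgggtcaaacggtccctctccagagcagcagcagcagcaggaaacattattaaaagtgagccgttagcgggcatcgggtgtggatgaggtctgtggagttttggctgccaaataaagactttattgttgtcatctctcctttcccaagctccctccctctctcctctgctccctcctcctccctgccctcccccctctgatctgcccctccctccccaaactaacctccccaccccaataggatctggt
Of the 10 members, 8 had an entry among the RefSeq windows, with 9 windows in all since Podn has a pair, and Dcn and Lum had none. A TATA box (TATAAA, coding strand) stood in the windows of Aspn and Ogn, 207 and 227 bases before the start, and in 7.59% of the 32851 mouse windows of this length. A GC box (GGGCGG, either strand) stood in those of Bgn and Podn, and in 32.7% of all windows. The Bgn window held 3 of these, beginning 34, 10 and 6 bases before the start, of which the last and the one before it share bases. The TEAD motif GGAATG (either strand, 12.6% of all windows) was found in the Ogn window, and AP-1 (TGANTCA, either strand, 6.75%), the SMAD palindrome (GTCTAGAC, either strand, 0.167%) and the SRF CArG box (either strand, 1.47%) were found in none of the 9. A match or its absence describes the letters of these windows and nothing else. The windows of the members with the largest responses share none of the searched motifs with each other, and the windows of Fmod and Prelp hold none of them.

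To compare genes with each other, counts were divided by the length of each gene's canonical transcript and expressed as TPM, which scales the transcripts of each library to a fixed total. In vehicle sham muscle Dcn was the most abundant member per length, with 70.7 ± 10.9 TPM (SD, n = 5) and 42.8% ± 1.71 (SD, n = 5) of the family's transcripts. Bgn followed with 27.4 ± 3.89 TPM and Fmod with 20.3 ± 3.66 TPM, and the ranges of these overlapped each other but not that of Dcn. Lum, Aspn, Ogn and Prelp came next, from 12.4 ± 2.43 TPM down to 7.96 ± 1.11 TPM, each overlapping its neighbor in this order. Podn (4.21 ± 0.541 TPM), Kera (1.89 ± 0.450 TPM) and Omd (0.512 ± 0.196 TPM) stood lowest, in that order and without overlap. Omd, a protein best known from bone, rested on between 6 and 22 counts per vehicle sham mouse, so its level was the least exact of the family.

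In MOV muscle the order was different. The summed level of the 10 genes per length was 165 ± 23.8 TPM in vehicle sham, 219 ± 34.4 TPM in D + Q sham, 1337 ± 297 TPM in vehicle MOV and 1848 ± 252 TPM in D + Q MOV (SD, n = 5 each). TPM uses no TMM factors. The summed CPM, which uses them and is not divided by length, rose less with MOV. It was 404 ± 55.0, 510 ± 71.9, 1694 ± 312 and 2239 ± 218 CPM in the same order (SD, n = 5 each). Bgn had the highest level in vehicle MOV mice, 536 ± 106 TPM, and Aspn the second highest, 252 ± 57.1 TPM, while Dcn followed with 191 ± 60.8 TPM and overlapped Aspn. Bgn's mean share of the family's transcripts was 16.6% in vehicle sham and 40.2% in vehicle MOV, that of Aspn 6.39% and 18.8%, and that of Dcn 42.8% and 14.1%. The D + Q groups had much the same make-up, with Dcn at 42.2% in sham and 14.7% in MOV and Bgn at 15.4% and 37.4%. These shares depend on the transcript length used. With the merged length of all annotated exons, an alternative chosen after seeing the data, Dcn had 36.7% and Fmod 17.8% of the family in vehicle sham, and in vehicle MOV muscle Aspn had the highest share with 28.9% and Bgn followed with 27.3%.

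**Figure D1:**
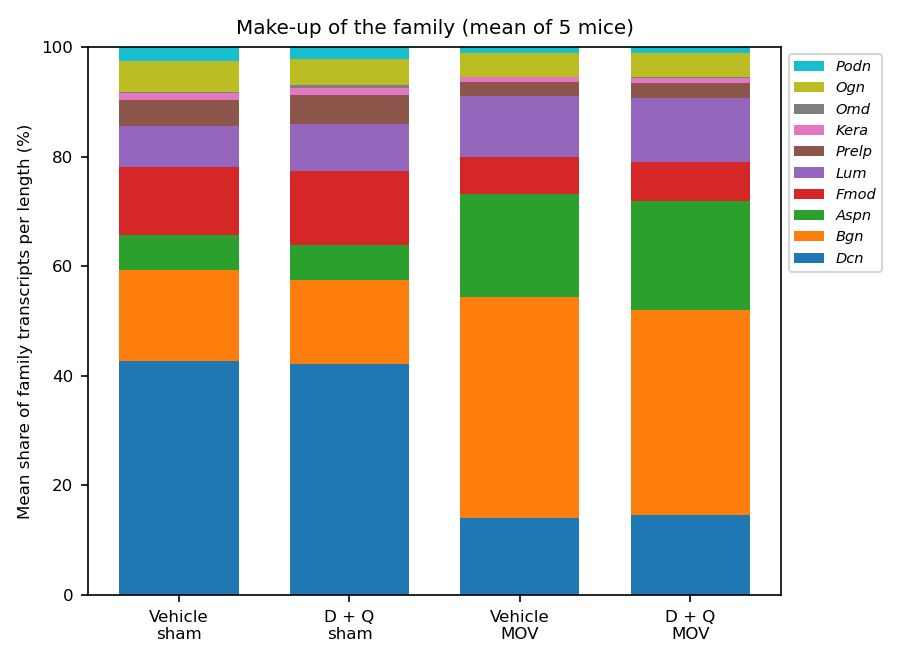
Mean share of the family's transcripts per length, in percent, for each of the 10 genes in the 4 groups of 5 mice, with canonical transcript lengths. Dcn takes 42.8% of the vehicle sham bar and 14.1% of the vehicle MOV bar, whereas Bgn takes 16.6% and 40.2%.

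All 10 members were significantly higher in MOV than in sham muscle, in vehicle and in D + Q mice alike, and 9 and 10 of them reached 10 counts in every sham mouse. Among all genes tested, 30.7% were called higher in vehicle mice and 34.4% in D + Q mice. The groups did not overlap for 9 of the 10 members in vehicle mice and for 10 of 10 in D + Q mice, against 23.8% and 26.5% of all genes that were higher without overlap. The median log2 fold change of the members was 1.90 in vehicle and 2.00 in D + Q mice, against -0.02 and 0.02 over all genes. With total counts in place of TMM factors, all genes shifted upward by a median of 0.38 and 0.37 on the log2 scale, and the members' medians became 2.29 and 2.37, so the members and the other genes moved together. Of all genes called in vehicle mice, 50.8% were higher and 84.1% with total counts, and in D + Q mice 52.6% and 83.5%. No member lost its call or its direction with total counts.

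Among the class I members, which carry chondroitin or dermatan sulfate or, in the case of Aspn, a stretch of aspartates, the responses were far apart. Aspn, which binds collagen and TGF-β, was measured at 14.1, 11.2, 13.1, 16.8 and 15.3 CPM in vehicle sham mice 1 to 5, and at 235, 184, 238, 302 and 238 CPM in vehicle MOV mice. In D + Q mice it was at 14.9, 26.5, 15.4, 16.01 and 15.1 CPM after sham surgery and at 327, 242, 433, 311 and 359.7 CPM after MOV. Every MOV mouse stood far above every sham mouse. Aspn rose by 4.09 (SE 0.14, adjusted p = 3.98e-10) on the log2 scale in vehicle mice and by 4.30 (SE 0.22, adjusted p = 1.02e-07) in D + Q mice, the largest rise of the family in both.

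Bgn, which in soluble form is also a ligand of Toll-like receptors, was at 32.6, 40.4, 34.0, 43.5 and 35.7 CPM in vehicle sham mice and at 574, 394, 523, 606 and 504 CPM in vehicle MOV mice. In D + Q mice its values were 31.8, 57.7, 46.7, 43.8 and 41.4 CPM after sham surgery and 614, 523, 661, 648 and 738 CPM after MOV. The surgeries gave fully separate values, with the lowest MOV mouse far above the highest sham mouse. The log2 fold change was 3.81 (SE 0.13, adjusted p = 8.7e-11) in vehicle and 3.89 (SE 0.15, adjusted p = 9.87e-10) in D + Q mice.

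Dcn, the closest relative of Bgn and a binder of collagen I, TGF-β and myostatin, responded much less. It was at 247, 214, 205, 293 and 256 CPM in vehicle sham mice and at 411, 348, 479, 666 and 424 CPM in vehicle MOV mice. In D + Q mice it was at 246, 302, 377, 296 and 299 CPM and 699.5, 598, 712, 585 and 539 CPM. The sham and MOV ranges lay close to each other in vehicle mice but did not overlap. The log2 fold change was 0.95 (SE 0.16, adjusted p = 0.000269) in vehicle and 1.08 (SE 0.10, adjusted p = 3.72e-07) in D + Q mice.

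The class II members, whose chains are mostly keratan sulfate, rose by between 0.95 and 3.10 in vehicle mice. Lum, which helps to space collagen fibrils and binds the same region of collagen I as Fmod, had the largest response of this class. It was at 14.6, 15.9, 15.9, 22.2 and 17.4 CPM in vehicle sham and 136, 110.0, 154, 192 and 138 CPM in vehicle MOV mice, and at 14.7, 40.4, 24.3, 27.3 and 21.4 CPM and 208, 186, 255, 187 and 178 CPM in the D + Q groups. No MOV mouse came near the sham range, although the D + Q sham mice were spread widely among themselves. Its log2 fold change was 3.10 (SE 0.16, adjusted p = 1.77e-08) in vehicle and 3.03 (SE 0.25, adjusted p = 4.91e-06) in D + Q mice.

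Fmod, which binds collagen I and collagen cross-linking enzymes, was at 38.3, 29.7, 34.3, 44.7 and 31.4 CPM in vehicle sham and 115, 96.2, 98.1, 125 and 127 CPM in vehicle MOV mice. In the D + Q groups it was at 46.9, 50.5, 57.1, 40.9 and 52.4 CPM and 158, 134, 148, 166 and 159.7 CPM. From the lowest mean to the highest, the groups stood as vehicle sham, then D + Q sham, then vehicle MOV and last D + Q MOV, and of these neighbors only the sham groups overlapped. The response to MOV was 1.66 (SE 0.12, adjusted p = 5.85e-08) in vehicle and 1.67 (SE 0.08, adjusted p = 3.79e-11) in D + Q mice.

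Prelp, which links basement membranes to the collagen matrix, was at 19.0, 16.2, 18.9, 22.8 and 19.9 CPM in vehicle sham and 62.5, 47.5, 61.4, 72.3 and 51.4 CPM in vehicle MOV mice. In the D + Q groups it was at 22.1, 30.7, 28.8, 27.3 and 27.4 CPM and 84.4, 77.8, 68.8, 95.2 and 79.2 CPM. All MOV mice stood above all sham mice. Its log2 fold changes of 1.62 (adjusted p = 6.95e-08) and 1.61 (adjusted p = 5.98e-10) were close to those of Fmod.

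Kera, best known from the cornea, ranged from 1.91 to 3.30 CPM in vehicle sham and from 6.01 to 15.8 CPM in vehicle MOV mice. In D + Q mice it ranged from 2.67 to 4.24 CPM and from 14.6 to 19.3 CPM. It rose by 2.17 (adjusted p = 2.02e-05) in vehicle and by 2.34 (adjusted p = 2.31e-10) in D + Q mice. The vehicle MOV mice fell into a lower pair, mice 1 and 2, and a higher set of 3, and every D + Q MOV mouse stood above all vehicle MOV mice but mouse 5.

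Omd gave the least certain response. Its values were 1.01, 0.633, 0.382, 0.405 and 0.587 CPM in vehicle sham and 0.887, 1.04, 1.22, 1.23 and 1.57 CPM in vehicle MOV mice, and 0.628, 0.975, 0.975, 1.46 and 0.762 CPM and 1.49, 1.61, 2.16, 2.02 and 1.59 CPM in the D + Q groups. Vehicle sham mouse 1 stood above vehicle MOV mouse 1, so the vehicle groups overlapped, and the D + Q groups came within a few hundredths of a CPM of each other. The log2 fold change was 0.95 (SE 0.32, adjusted p = 0.0192) in vehicle and 0.92 (SE 0.26, adjusted p = 0.00537) in D + Q mice.

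Ogn, the class III member, and Podn, of a further class, both rose without overlap between surgeries. Ogn ranged from 22.1 to 35.1 CPM in vehicle sham and 89.8 to 163 CPM in vehicle MOV mice, with a log2 fold change of 2.15 (adjusted p = 1.82e-06), and rose by 2.47 (adjusted p = 6.24e-07) in D + Q mice. Podn ranged from 6.64 to 8.74 CPM and 15.3 to 26.1 CPM, with 1.41 (adjusted p = 7.77e-07), and rose by 1.60 (adjusted p = 8.71e-10) in D + Q mice.

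**Figure D2:**
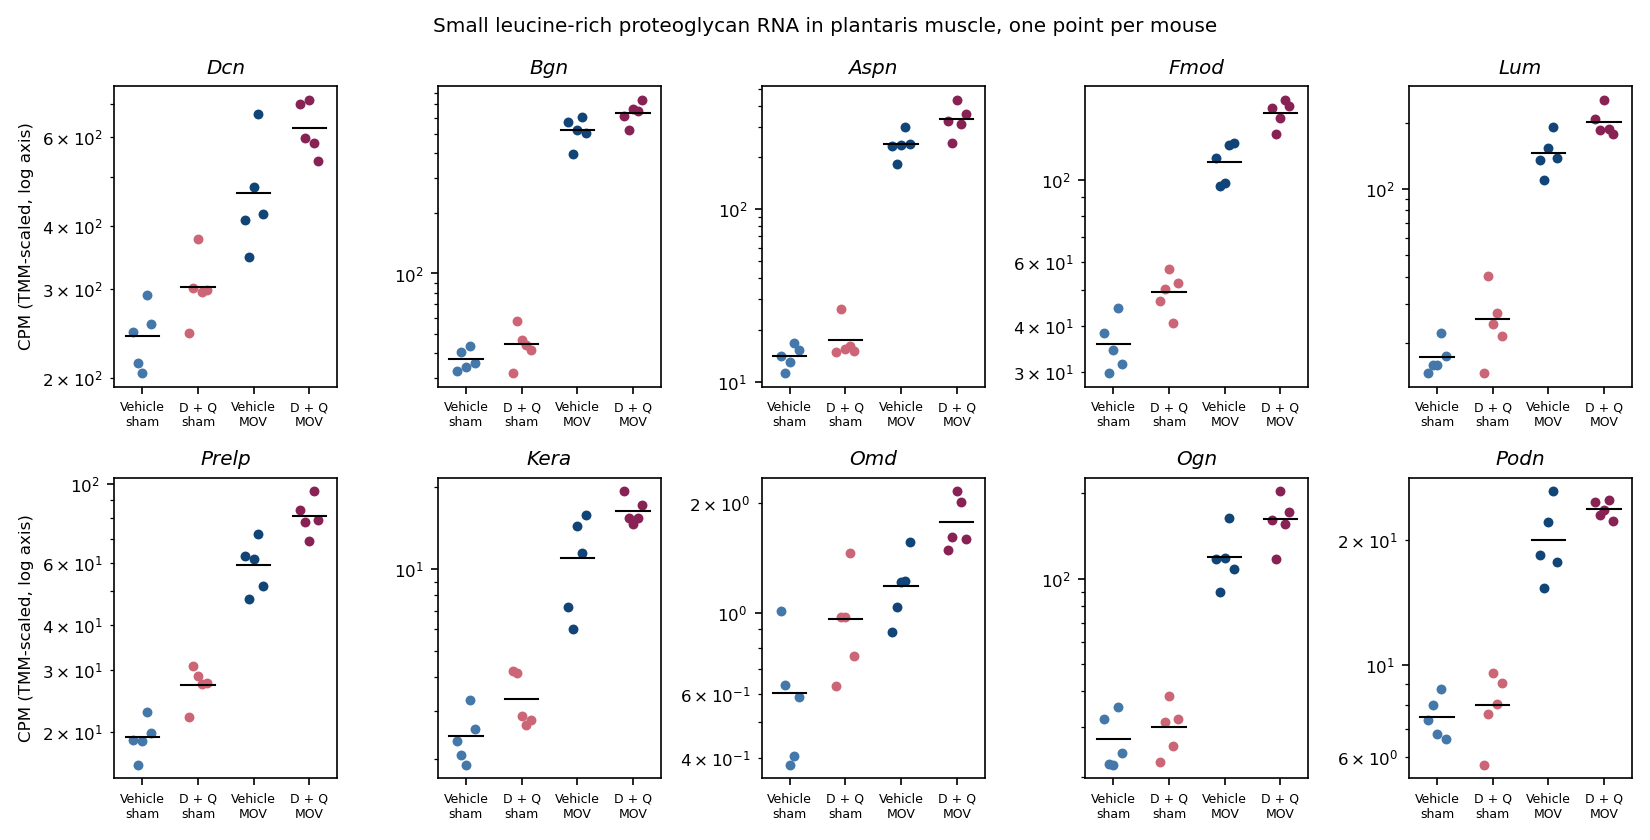
CPM of each of the 10 genes on a log axis in the 4 groups, with 1 point per mouse and a line at the mean of 5 mice. Within each treatment the MOV points lie above the sham points for all genes but Omd, whose vehicle groups overlap. Bgn rises from a mean of 37.2 CPM in vehicle sham to 520.2 CPM in vehicle MOV.

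**Figure D3:**
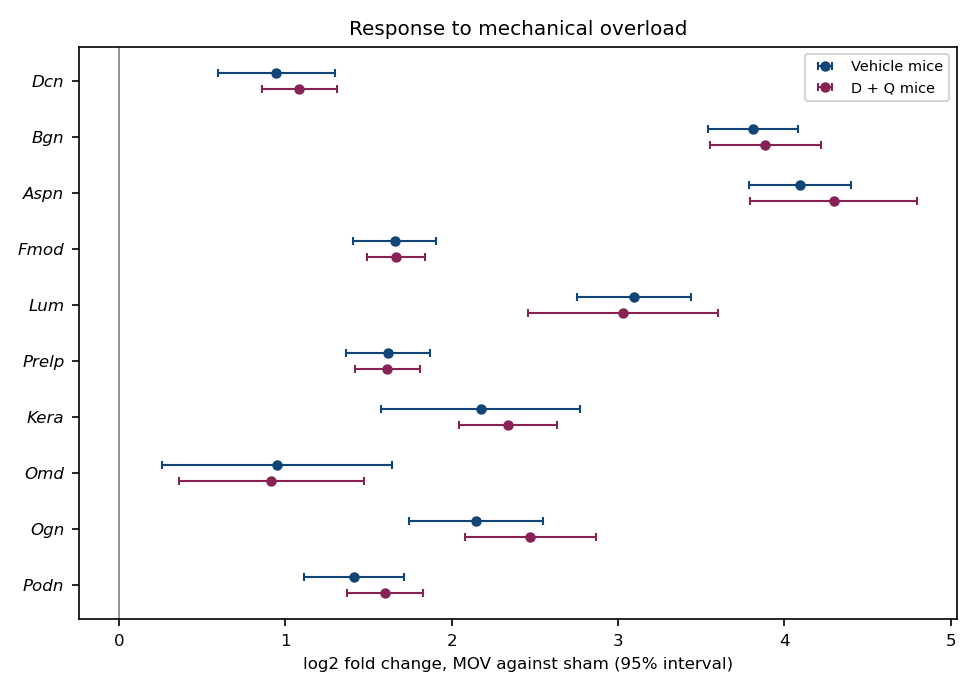
Log2 fold change of MOV against sham with its 95% interval for each of the 10 genes, in vehicle and in D + Q mice (5 against 5 each). Aspn, Bgn and Lum lie at 3.03 or above in both, while Dcn and Omd lie close to 1.

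The response to MOV was compared between D + Q and vehicle mice by an interaction term over all 20 mice. None of the 10 members was called, against 0.0127% of all genes, and 0 had an unadjusted p under 0.05, against 5.71% of all genes. DESeq2 called 0 as well. A missed threshold with 5 mice a group does not show that the responses were alike. The estimates ran from -0.10 for Lum to 0.29 for Ogn. Their 95% intervals limit the difference unequally. That of Fmod ran from -0.34 to 0.28 and that of Bgn from -0.35 to 0.43, whereas that of Omd ran from -0.88 to 0.74 and that of Kera from -0.56 to 0.82.

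In MOV muscle, all 10 members had a higher estimate in D + Q than in vehicle mice, but none passed the threshold after adjustment. The shares over all genes were 50.5% with an estimate above 0 and 0% called. The estimates lay between 0.23 for Podn and 0.56 for Omd, with a median of 0.44 against 0.00 over all genes. At an unadjusted p under 0.05 there were 9 members, all higher with D + Q, against 4.19% of all genes, and Podn was the exception with an unadjusted p of 0.0612. Adjusted p-values lay between 0.523 and 0.568. The study, which used DESeq2, named Fmod and Dcn among its most upregulated genes in these libraries, so neither is independent evidence of a direction. It reported far more differentially expressed genes than the 11 that DESeq2 called here. Dcn was called under no setting run here.

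Fmod gave the clearest separation. All 5 D + Q MOV mice, listed above, lay above all 5 vehicle MOV mice, and Fmod was the only member without overlap, against 0.853% of all genes that were higher without overlap. Its log2 fold change was 0.43 (SE 0.09, 95% interval 0.24 to 0.63) with an adjusted p of 0.523. DESeq2 called Fmod, with an adjusted p of 0.0275, and no other member.

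For Aspn, Bgn, Omd and Prelp, 4 of the 5 D + Q MOV mice lay above the highest vehicle MOV mouse. For Dcn, Lum, Kera and Ogn, 2 of 5 did so, and all 5 lay above the vehicle median. For Podn 0 of 5 lay above the highest vehicle mouse, since vehicle MOV mouse 4 stood above all of them. The log2 estimates were 0.42 (95% interval 0.10 to 0.73) for Dcn, 0.28 (0.03 to 0.53) for Bgn, 0.47 (0.15 to 0.79) for Aspn, 0.46 (0.17 to 0.75) for Lum and 0.44 (0.21 to 0.68) for Prelp. Those of Kera and Omd, 0.56 (0.04 to 1.08) and 0.56 (0.07 to 1.05), were the largest and the least exact.

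Part of the spread came with single mice. Vehicle MOV mouse 2 had the lowest value of its group for 9 of the 10 members, and vehicle MOV mouse 4 the highest for 7. Mouse 2 also had the lowest summed level of the 7 macrophage markers (201 CPM, in a group that reached 621 CPM in mouse 4), the lowest of the 10 fibroblast markers (975 CPM, reaching 2040.3 CPM in mouse 4) and the highest of the 8 muscle fiber markers (102562 CPM, down to 73784 CPM in mouse 4). Gsn was the largest single part of the fibroblast sum, with a mean of 523 CPM in this group against 1352 CPM for the sum. Without mouse 2, all 10 estimates of D + Q against vehicle stayed above 0, between 0.15 and 0.52, and 6 members had an unadjusted p under 0.05, with 944 genes in all against 1340 when all mice were used. Without mouse 4 they lay between 0.33 and 0.57, and 9 members did, with 2634 genes in all. The part of these cell type markers in the members' values was not tested.

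In sham muscle the estimates pointed the same way, and 1 member passed. All 10 were above 0 with D + Q, against 48.6% of all genes. Prelp was called, against 0.187% of all genes called higher, and 3 members (Dcn, Fmod and Prelp) had an unadjusted p under 0.05 and were higher, against 5.39%. In none of the 10 did the groups separate fully, against 1.35% of all genes. The D + Q and vehicle comparisons in sham and in MOV muscle use different mice, whereas each shares its mice with the comparisons of MOV with sham above.

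Prelp was at a mean of 19.4 ± 2.36 CPM in vehicle sham and 27.2 ± 3.19 CPM in D + Q sham mice (SD, n = 5 each). In 4 of the 5 D + Q sham mice it lay above the highest vehicle sham mouse, and D + Q sham mouse 1 alone lay within the vehicle range. The log2 fold change was 0.48 (SE 0.09, 95% interval 0.28 to 0.67, adjusted p = 0.0436). The estimate without any 1 of the mice stayed between 0.42 and 0.54, while the call was lost without vehicle sham mouse 1, 2 or 3 and without D + Q sham mouse 2, 3, 4 or 5, with adjusted p-values of up to 0.136. With all 20 mice in one fit the estimate was 0.49 and the adjusted p 0.125.

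Fmod was at 35.7 ± 6.01 CPM in vehicle sham and 49.5 ± 6.09 CPM in D + Q sham mice (SD, n = 5 each), again with 4 of 5 D + Q mice above the highest vehicle mouse. Its log2 fold change was 0.46 (95% interval 0.21 to 0.70) with an adjusted p of 0.167, and DESeq2 called it with an adjusted p of 0.0117. Without vehicle sham mouse 4, the highest of its group in 9 of the 10 members, edgeR called it too (adjusted p = 0.0357). Dcn was at 0.31 (0.05 to 0.56), Aspn at 0.30 (-0.06 to 0.65), Bgn at 0.23 (-0.07 to 0.53) and Omd at 0.62 (-0.12 to 1.36). Lum was at 0.55 and Kera at 0.43, each with an interval that reached just below 0. The estimates of Ogn, 0.13 (-0.26 to 0.51), and Podn, 0.08 (-0.20 to 0.36), were the smallest.

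**Figure D4:**
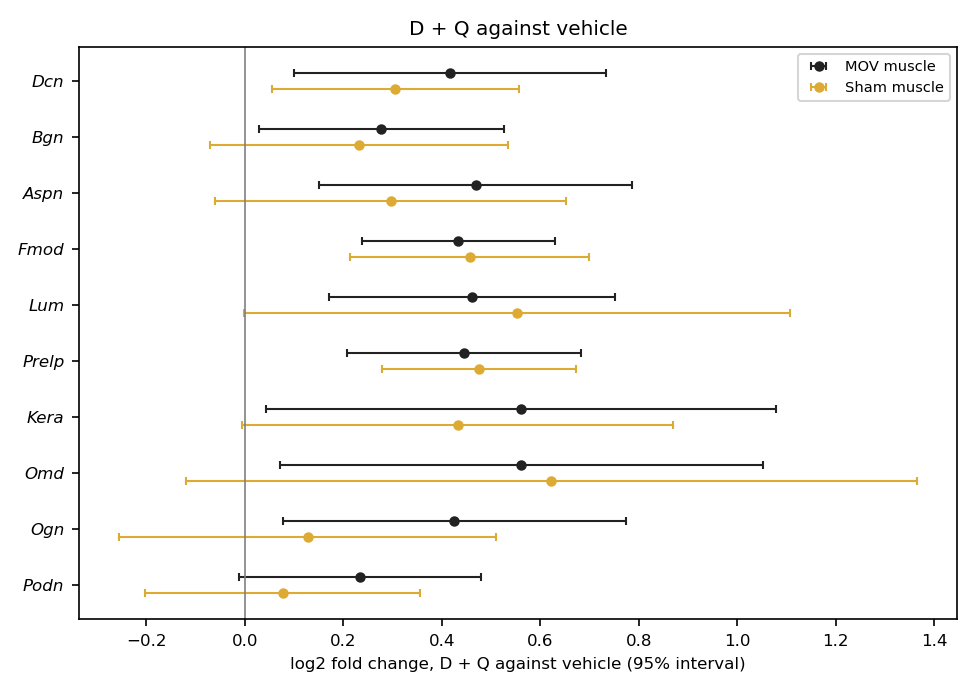
Log2 fold change of D + Q against vehicle with its 95% interval for each of the 10 genes, in MOV and in sham muscle (5 against 5 mice each). All 20 points lie above 0, and the interval of Podn in MOV muscle and those of 7 genes in sham muscle reach 0 or below.

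Ratios of members within a mouse do not depend on how the libraries were scaled, so 4 ratios were compared in 4 ways with two-sided exact permutation tests, whose smallest possible p is 0.00794, and adjusted over the 16 tests. The log2 ratio of Bgn to Dcn counts was -2.92, -2.41, -2.59, -2.75 and -2.84 in vehicle sham mice and 0.48, 0.18, 0.13, -0.14 and 0.25 in vehicle MOV mice. In the D + Q groups it was -2.95, -2.38, -3.01, -2.76 and -2.85 after sham surgery and -0.19, -0.19, -0.11, 0.15 and 0.45 after MOV. The sham and MOV mice did not overlap, and every MOV mouse stood well above every sham mouse. The ratio was higher after MOV by 2.88 on the log2 scale in vehicle and by 2.81 in D + Q mice, each with an exact permutation p of 0.00794 (adjusted p = 0.0159).

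The ratio of Fmod to Lum moved the other way. Its log2 mean was 1.05 ± 0.22 in vehicle sham and -0.37 ± 0.25 in vehicle MOV mice, and 1.02 ± 0.55 and -0.40 ± 0.26 in the D + Q groups (SD, n = 5 each). It fell by 1.42 with MOV in both treatments, each with an exact permutation p of 0.00794 (adjusted p = 0.0159). The ratio was above 0 in every sham mouse and below 0 in every MOV mouse, without correction for gene length.

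Measured against Col1a1, the main fibril collagen, Dcn and Fmod both fell with MOV. The log2 ratio of Dcn to Col1a1 had means of 2.35 ± 0.14 in vehicle sham and -2.31 ± 0.25 in vehicle MOV mice, and of 1.87 ± 0.70 and -2.25 ± 0.27 in the D + Q groups. That of Fmod to Col1a1 had means of -0.43 ± 0.25, -4.34 ± 0.24, -0.74 ± 0.70 and -4.28 ± 0.21 in the same order. The differences of -4.66 and -4.12 for Dcn and of -3.91 and -3.53 for Fmod each had an exact permutation p of 0.00794 (adjusted p = 0.0159). Col1a1 itself was at 48.3 ± 10.6 CPM in vehicle sham and 2302 ± 469 CPM in vehicle MOV mice (SD, n = 5 each).

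None of the 8 ratio tests between D + Q and vehicle passed. In MOV muscle the differences in log2 ratio lay between -0.16 for Bgn to Dcn and 0.07 for Dcn to Col1a1. In sham muscle the largest was that of Dcn to Col1a1, -0.48 (exact permutation p = 0.159, adjusted p = 0.282). Without D + Q sham mouse 3, which had the highest ratio, this difference became -0.69 with an adjusted p of 0.0282. The difference of -0.16 in Bgn to Dcn in MOV muscle became -0.08 without vehicle MOV mouse 1 and -0.27 without D + Q MOV mouse 5. That of Fmod to Col1a1 in sham muscle, -0.32, became -0.06 without D + Q sham mouse 2 and -0.51 without D + Q sham mouse 3.

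**Figure D5:**
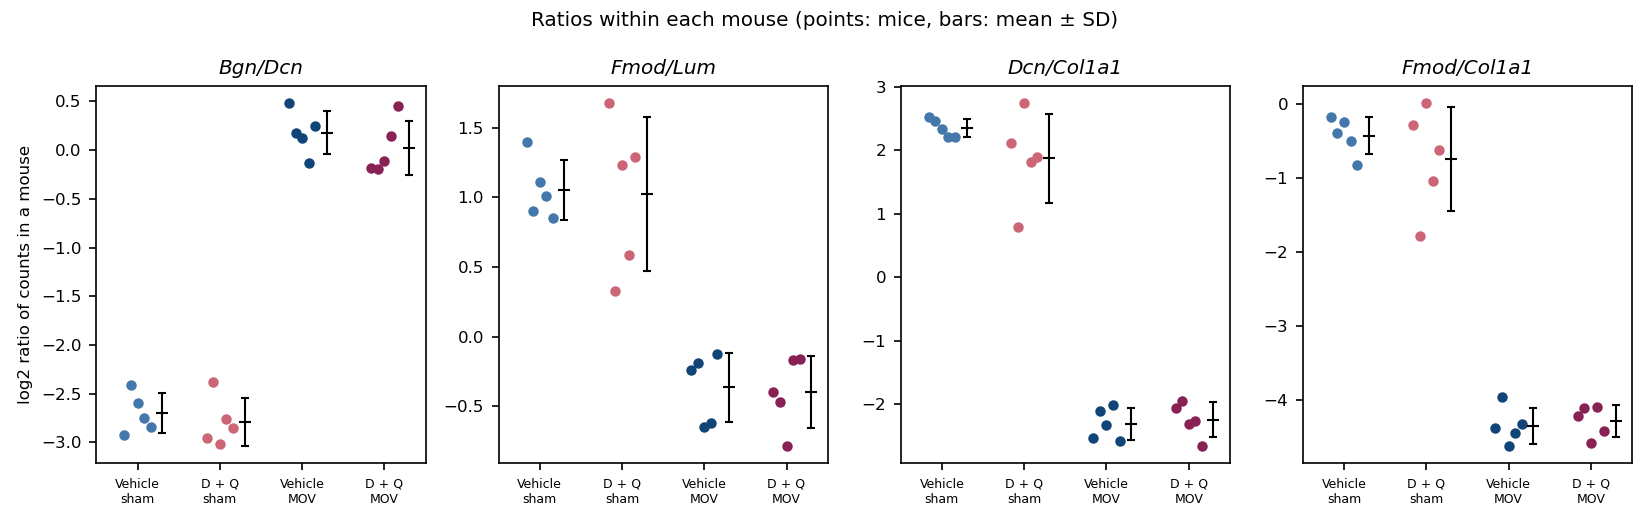
Log2 ratio of counts within each mouse for Bgn to Dcn, Fmod to Lum, Dcn to Col1a1 and Fmod to Col1a1 in the 4 groups, with 1 point per mouse and a bar for the mean ± SD of 5 mice. Bgn to Dcn stands near -2.70 ± 0.21 in vehicle sham and near 0.18 ± 0.22 in vehicle MOV, and the other ratios are lower in every MOV mouse than in any sham mouse.

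The genes that work with the family were taken from lists by role. Over all genes tested, whatever their counts in sham muscle, 4482 of 14601 were called higher with MOV and 4349 lower in vehicle mice. In D + Q mice these were 5129 and 4614 of 14913. A gene that is low in sham muscle can pass the filter with the help of the MOV mice, which selects for a rise with MOV. List counts with MOV are therefore given over the genes that reached 10 counts in every sham mouse of the treatment, and changes are on the log2 scale. The list of fibril partners held 16 genes, namely collagens, cross-linking enzymes and Tnxb (tenascin-X). Of these, 14 of 15 with enough counts in sham muscle rose with MOV in vehicle and 16 of 16 in D + Q mice. DESeq2 called 15 of the 16 higher in vehicle mice, all but Tnxb. The means of Tnxb were 104 CPM in vehicle sham and 132 CPM in vehicle MOV mice. The largest rises in vehicle mice were those of Col12a1, a collagen on the fibril surface (5.92, adjusted p = 2.27e-07), Col1a1 (5.58, adjusted p = 1.38e-09) and Col3a1, another fibril collagen (5.28, adjusted p = 9.48e-09). In D + Q mice Lox, the lysyl oxidase, took the place of Col3a1 (4.95, adjusted p = 1.09e-13). Between D + Q and vehicle edgeR called none (6 in MOV and 11 in sham muscle had an unadjusted p under 0.05, all higher) and DESeq2 called Col5a1 and Lox in sham muscle, named here because of that call, while 16 of 16 estimates were above 0 in MOV and in sham muscle, with medians of 0.34 and 0.58. Col1a1 was at 0.36 (adjusted p = 0.547) and 0.88 (adjusted p = 0.433).

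Of 8 listed proteases that cut these proteoglycans, 4 of 4 with enough counts in sham muscle rose with MOV in vehicle and 6 of 6 in D + Q mice. Mmp14, a membrane-bound matrix metalloproteinase, rose by 3.63 and 3.35, and Mmp2, a gelatinase, by 3.49 in D + Q mice. Adamts4, an aggrecanase, passed the filter in vehicle mice with the help of the MOV mice, with 0.184 to 0.587 CPM in vehicle sham and 5.59 to 14.0 CPM in vehicle MOV mice, and rose by 4.07 in D + Q mice. In sham muscle Mmp14 was also higher with D + Q, by 0.71 (adjusted p = 0.0177) and without overlap. No other listed protease was called between D + Q and vehicle by edgeR or DESeq2, while 3 had an unadjusted p under 0.05 in MOV and 4, Mmp14 among them, in sham muscle.

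Of 22 enzymes that build chondroitin and dermatan sulfate chains, 13 of 18 with enough counts in sham muscle were higher and 2 lower with MOV in vehicle mice, and 15 of 20 were higher and 2 lower in D + Q mice. Chpf, a partner of the chondroitin synthases, rose by 2.67 and 2.99. Dse, an epimerase of dermatan sulfate, rose by 2.56 in vehicle and Csgalnact1 by 2.66 in D + Q mice. Chsy3, a chondroitin synthase, had between 1 and 6 counts per sham mouse and passed through the MOV mice alone, with 0.0587 to 0.345 CPM in vehicle sham and 2.28 to 4.57 CPM in vehicle MOV mice. Called lower were Xylt1, which starts the chain (-0.70), and the xylose kinase Fam20b (-0.58) in vehicle mice, and Fam20b (-0.36) and B3gat3 (-0.21) in D + Q mice, of which Xylt1 lost its call with total counts (-0.30), Fam20b in D + Q mice its call and sign (0.01) and B3gat3 its call and sign (0.16). Between D + Q and vehicle edgeR called none of the list, with 5 enzymes at an unadjusted p under 0.05 in MOV and 2 in sham muscle, and DESeq2 called none.

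Of 7 keratan sulfate enzymes, 2 of 3 with enough counts in sham muscle were higher with MOV in vehicle and 3 of 4 in D + Q mice, and none was lower. The galactosyltransferase B4galt4 rose by 0.96 and 1.35. The sulfotransferases Chst2 in both treatments, Chst1 in vehicle and Chst5 in D + Q mice passed with the help of the MOV mice. Chst5 had at most 2 counts per D + Q sham mouse, with means of 0.0749 CPM in sham and 1.85 CPM in MOV, and Chst2 had means of 0.518 CPM in vehicle sham and 3.74 CPM in vehicle MOV mice. Between D + Q and vehicle edgeR called none, with 0 enzymes at an unadjusted p under 0.05 in MOV and 1 in sham muscle. DESeq2 called B4galt1 in sham muscle, at 48.7 to 67.5 CPM with D + Q and 35.7 to 46.8 CPM with vehicle.

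Of the growth factors that proteoglycans of this family bind, 3 of 6 rose and 2 fell with MOV in vehicle mice, and 3 rose and 1 fell in D + Q mice. Mstn, which encodes myostatin, the inhibitor of muscle growth, fell from 71.2 ± 11.6 CPM in vehicle sham to 22.5 ± 3.34 CPM in vehicle MOV mice (SD, n = 5 each), with log2 fold changes of -1.65 (adjusted p = 2.15e-07) in vehicle and -1.63 (adjusted p = 9.13e-10) in D + Q mice. It therefore moved opposite to Dcn and Fmod with MOV. Between D + Q and vehicle its log2 fold change was 0.15 (95% interval -0.09 to 0.38) in MOV and 0.16 (-0.10 to 0.41) in sham muscle, and neither passed. Tgfb1 rose with MOV by 2.05 (adjusted p = 1.55e-06) and 2.19 (adjusted p = 1.18e-10), and was at 0.18 (95% interval -0.22 to 0.58) between D + Q and vehicle MOV muscle. Ccn2, connective tissue growth factor, rose by 2.56 and 2.87, and Tgfb3 by 0.86 and 0.80. Tgfb2 was called lower in vehicle mice (-0.31, adjusted p = 0.0398), a call and sign that were lost with total counts (0.07). Between D + Q and vehicle edgeR called none of the 6. At an unadjusted p under 0.05 there were 0 in MOV and 2 in sham muscle, both higher with D + Q. DESeq2 called Ccn2, higher with D + Q in sham muscle.

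Of 9 receptors for the family or for its ligands, 5 of 9 were higher and 1 lower with MOV in vehicle mice, and 4 of 8 with enough counts in sham muscle were higher and 1 lower in D + Q mice. Tlr2 and Tlr4, the Toll-like receptors that soluble biglycan can engage, rose by 2.15 and 1.77 in vehicle mice and Tlr4 by 1.67 in D + Q mice, where Tlr2 passed with the help of the MOV mice (0.863 CPM in sham and 5.58 CPM in MOV). Lrp1 rose by 1.54 in vehicle mice and Tgfbr2 by 1.54 in D + Q mice. Met, a receptor that decorin can bind, was lower, at -0.75 and -0.52 on the log2 scale, and the second of these calls was lost with total counts (-0.16). Between D + Q and vehicle edgeR called none, with 2 receptors at an unadjusted p under 0.05 in MOV and 3 in sham muscle, and DESeq2 called Lrp1, higher with D + Q in sham muscle.

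Among 9 other members and relatives of the family, 2 of 3 with enough counts in sham muscle rose with MOV in vehicle and 2 of 4 in D + Q mice. Ecm2 rose by 1.08 and 1.26. Tsku (tsukushi) rose by 3.43 in D + Q mice, and in vehicle mice, where it passed with the help of the MOV mice, it was at 0.405 to 1.59 CPM in sham and 5.18 to 13.0 CPM in MOV. Podnl1, the relative of Podn, was almost absent from vehicle sham muscle (0 to 0.0587 CPM) and was at 0.725 to 1.49 CPM in vehicle MOV mice. Epyc, Optc and Nyx were too low to be tested in any comparison.

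Markers of cells that can make these proteoglycans were also higher after MOV. Of 10 fibroblast markers, 8 rose in vehicle and 9 in D + Q mice. Their summed level ranged from 762 to 1109.6 CPM in vehicle sham, 869 to 1463 in D + Q sham, 975 to 2040.3 in vehicle MOV and 1472 to 1871 in D + Q MOV mice. Gsn, the most abundant of the list, weighed most in these sums, with means of 644, 779, 523 and 672 CPM in that order. It was the only fibroblast marker with a lower mean after MOV. Of 8 tendon cell markers 5 of 5 with enough counts in sham muscle rose in vehicle and 7 of 7 in D + Q mice, with sums of 56.9 to 86.1, 68.1 to 108, 571 to 1106 and 779 to 1173 CPM in the same order of groups. These sums were mostly Thbs4, with means of 40.4, 47.3, 600 and 685 CPM in that order. Scx and Tnmd, which define tendon cells, were present in every group, with means of 6.99 and 3.87 CPM in vehicle sham and of 22.3 and 55.2 CPM in vehicle MOV mice. The part of tendon or fibroblast RNA in the members' rise was not tested.

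Of 7 macrophage markers all 7 rose with MOV in both treatments, with sums of 42.0 to 109, 44.5 to 121, 201 to 621 and 466 to 559.5 CPM in the 4 groups. Of 10 cartilage and bone markers 3 had enough counts in sham muscle and all 3 rose in both treatments, with sums over the list of 4.76 to 10.0, 8.02 to 12.7, 45.8 to 75.0 and 55.0 to 90.7 CPM. Acan, the cartilage proteoglycan, was at a mean of 0.0347 CPM in vehicle sham and 6.64 CPM in vehicle MOV mice, while Hapln1 and Sp7 were at means of 0.118 and 0.223 CPM in vehicle MOV mice. Of 8 muscle fiber markers 1 was called higher and 4 lower with MOV in vehicle mice, and 2 higher and 5 lower in D + Q mice. Their sums ranged from 127545 to 148491 CPM in vehicle sham, 138788 to 148539 in D + Q sham, 73784 to 102562 in vehicle MOV and 72925 to 90943 in D + Q MOV mice. In vehicle sham muscle Myh4 made up the largest part of the sum. Its mean was 58291 CPM there and 19712 CPM in vehicle MOV mice. That of Acta1 was 23639 and 22544 CPM, and that of Myh2 rose from 4460 to 7413 CPM. Of 5 endothelial markers 3 rose in each treatment, with sums of 113 to 163 CPM in vehicle sham and 186 to 207 CPM in vehicle MOV mice, and of 5 mural cell markers 3 rose. Of 4 Schwann cell markers 3 had enough counts in sham muscle, of which none was called in vehicle mice, and Mbp was called lower in D + Q mice (-0.35, adjusted p = 0.0282), a call and sign that were lost with total counts (0.02). Between D + Q and vehicle edgeR called 0 markers of these 8 lists in MOV or in sham muscle, while DESeq2 called Col11a1, a tendon marker, in MOV muscle and Mfap5 (fibroblast) and Comp (cartilage) in sham muscle, all higher with D + Q. At an unadjusted p under 0.05 in MOV muscle were 1 fibroblast, 3 tendon, 1 cartilage and bone and 1 macrophage marker, all higher with D + Q, and 1 muscle fiber marker, Myh2, which was lower (-0.36). In sham muscle they were 5 fibroblast and 3 tendon markers and 1 each of the cartilage and bone, endothelial and mural lists, all higher with D + Q. In both, 10 of 10 fibroblast and 8 of 8 tendon estimates were above 0. The part of these cells in the members' values was not tested.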

How the data were processed

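The authors deposited 1 table of estimated counts for 22660 genes in the 20 mice. Per the labels and the study's methods, reads were aligned with STAR 2.7.8a to GRCm39 and quantified in Partek Flow by expectation maximization, which divides reads among genes, and genes with fewer than 10 counts in all were dropped. Of the expected counts, 29.8% were not whole, and they were rounded here. Whether the counting used strand is not given in the sources used here. Samples were grouped by their labels.

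Genes that reached 10 counts in 5 or more mice of a comparison were tested with edgeR 4.0.16 (quasi-likelihood test, TMM factors, R 4.3.3) on the 10 mice of that comparison, or on all 20 for the interaction, adjusted after Benjamini and Hochberg and called at an adjusted p under 0.05. Library totals were 17887532 to 26234518, and the precision of a value is set by its counts and by the spread over 5 mice. The edgeR p-values set a group difference against the spread between these mice, estimated with the help of all genes. Those of the ratios come from exchanging mice between groups. Levels per length used GENCODE canonical transcripts. Ratios were tested by exact permutation (scipy 1.17.1). Alternatives were DESeq2 1.42.0, other scaling factors and filters, limma-voom 3.58.1, one fit of all mice, a replicate block and leaving out each mouse. The scripts were tested on simulated counts. The members and lists were chosen with earlier results of these data known. All members are named, and of each other list at most the 3 called genes per direction with the largest change in a comparison. Named besides these are Col1a1, Mstn, Tgfb1, Tnxb, genes called by DESeq2 alone and cell type markers.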

Additional observations from a re-analysis of the deposited data

Results flagged for a closer look

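Aspn in D + Q sham mouse 2 stood apart from the rest of its group, at 26.5 CPM against 14.9 to 16.01 CPM in the other 4 mice. Of 56 groups of 5 values examined in this way it was the only one past Dixon's critical value, where chance alone gives about 1 in 20. The same mouse had the highest Lum (40.4 CPM) and Bgn (57.7 CPM) of its group. It also had the highest summed fibril partners (1399 CPM) and the highest summed macrophage markers (121 CPM). The part of these in its Aspn level was not tested.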

How the results depend on the processing

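All 10 members kept their direction and their call for MOV against sham, in vehicle and in D + Q mice, under every alternative run. The calls between D + Q and vehicle depended on the setting, and the cause was not tested. In MOV muscle DESeq2 called 1 member (Fmod) and 11 genes in all, against 0 and 0 by edgeR, and without each mouse in turn edgeR called 0 members and 0 to 2 genes. In sham muscle edgeR called 1 member and 30 genes, DESeq2 2 members and 133 genes, and one fit of all 20 mice 0 members and 19 genes. There total counts gave 49 genes, no filter 67 and a filter of at least 1 count 47, and leaving out each mouse gave 0 to 2 members and 2 to 74 genes. Prelp in sham muscle kept an estimate of 0.42 to 0.54 without each mouse in turn, and had adjusted p-values of 0.00199 to 0.125 over the alternatives other than leaving out mice and of 0.0250 to 0.136 over those, and Fmod was called by DESeq2 and without vehicle sham mouse 4.

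Leaving out single mice turned the sign of interaction estimates that were close to 0, with ranges of -0.062 to 0.15 for Bgn, -0.12 to 0.034 for Fmod, -0.25 to 0.12 for Lum, -0.12 to 0.047 for Prelp, -0.35 to 0.14 for Omd and -0.038 to 0.30 for Kera, and leaving out each mouse called 2 to 3 genes in all for the interaction. Among the ratios between D + Q and vehicle, the ranges were -0.10 to 0.065 in MOV and -0.20 to 0.14 in sham muscle for Fmod to Lum, -0.0091 to 0.17 for Dcn to Col1a1 and -0.0052 to 0.16 for Fmod to Col1a1 in MOV muscle, -0.69 to -0.21 for Dcn to Col1a1 and -0.51 to -0.058 for Fmod to Col1a1 in sham muscle, and -0.27 to -0.084 in MOV and -0.19 to -0.015 in sham muscle for Bgn to Dcn.

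The replicate numbers do not pair the mice, since same-numbered mice had correlations of -0.214 to 0.232 in their deviations and at most 1 of 5 pairs in a comparison was over 0.1. With the replicate block, edgeR called 2 genes and 0 members in MOV muscle, 19 genes and 0 members in sham muscle (Prelp adjusted p = 0.0761) and 1 gene for the interaction, and 10 of 10 members for MOV against sham in each treatment. No paired analysis was possible for the ratios because the numbers share no animal. The depth limits Omd most, with as few as 6 counts in a mouse.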
